A study of Mus musculus with 3 samples.

Results

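Gene expression during palatal fusion was set against both flanking stages, before and after fusion, on 3 Affymetrix whole-genome mouse arrays, 1 for each stage. Maxillae of ICR mouse fetuses at E14 were kept in suspension culture in BGJb medium, and tissue was taken after 5 h (before fusion), 24 h (during fusion, when the medial epithelial seam is present) and 60 h (after fusion). No stage received an agent or carried a mutation. The shelf edge was dissected before fusion and the midline tissue at both later stages. Stage and hours in culture changed together at both steps and cannot be told apart. From before to during fusion the piece of tissue changed with them. A transient peak was a signal during fusion more than 2-fold above the higher of the flanking signals, and a transient dip was a signal more than 2-fold below the lower of them. All 45037 probe sets that are not controls were taken in, of 18193 genes with a probe set of their own. With no replicates, no ratio carries an error or a test, and whatever belongs to the single array during fusion, its tissue, RNA or labelling, enters both ratios of every gene.

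A gene that moves steadily through palate formation has its signal during fusion between the flanking values. Peaks and dips are the genes that do not. Fusion brings the epithelia of the opposing shelves together into a seam, which is then lost while the mesenchyme becomes continuous and starts to form bone and muscle. The tissue is bulk, and fewer cells of a type and less RNA per cell cannot be told apart.

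The arrays were scaled to the same trimmed mean and raised to a floor read from sensory receptor genes, 19.4 before, 13.3 during and 14.7 after fusion in units of the scaled signal. Between 56.8% and 65.6% of the probe sets lay above the floor, with the highest share during fusion. The ratio of the 5′ to the 3′ control probe set of *Actb*, a measure of how far the labelling reached along the transcript, was 0.718 before, 0.713 during and 0.718 after fusion. The same ratio of *Gapdh* was 1.33, 1.39 and 1.35, highest during fusion. The labels give the fetuses as female, yet the Y-linked genes *Uty*, *Kdm5d* and *Eif2s3y* lay above the floor on all 3 arrays, beside *Xist*, the RNA of the inactive X chromosome. *Eif2s3y*, a translation initiation factor subunit, had 71.7 before, 196 during and 113 after fusion. *Kdm5d*, a histone demethylase, had 31.5, 63.5 and 34.8. *Uty* had 46.6, 74.7 and 42.5 and *Xist* 2075, 3224 and 1350, so all 4 were highest during fusion, by between 1.55-fold and 1.82-fold over the higher flank. These signals go against the label, and the part of the sex of the tissue in the other results was not tested.

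The genes with most results below are those of the amino acid response. When amino acids run short, uncharged tRNA activates the kinase GCN2, phosphorylation of the initiation factor eIF2α slows translation, and the transcription factor ATF4 is made in greater amounts. ATF4 switches on amino acid transporters, enzymes of amino acid synthesis, aminoacyl-tRNA synthetases and regulators that feed back on the pathway, through composite elements that join part of a C/EBP site to part of an ATF site. The letters TGATGNAA, a common form of this element, were searched on both strands in RefSeq promoter windows of GRCm38.p6 that run from 250 bases before to 50 bases after each gene's start. They were held by 3.97% of all 32851 windows, by the windows of 4.51% of the 27025 genes with one and by those of 10 of 29 genes on the amino acid response list that had one. The windows of *Asns*, *Chac1* and *Trib3* are shown since these genes were dips and hold the letters, and that of *Fgf21* since it holds them and was highest during fusion. Each runs 5′ to 3′ on the gene's strand with the matching letters, read on either strand, in capitals.
Asns promoter, chr6:7693160-7693459 on the minus strand: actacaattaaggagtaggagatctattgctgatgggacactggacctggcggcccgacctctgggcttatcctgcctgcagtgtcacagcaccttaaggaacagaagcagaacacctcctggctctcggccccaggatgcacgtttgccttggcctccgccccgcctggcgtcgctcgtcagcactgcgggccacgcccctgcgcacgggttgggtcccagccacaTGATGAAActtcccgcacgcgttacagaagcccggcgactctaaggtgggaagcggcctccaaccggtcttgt
Chac1 promoter, chr2:119350992-119351291 on the plus strand: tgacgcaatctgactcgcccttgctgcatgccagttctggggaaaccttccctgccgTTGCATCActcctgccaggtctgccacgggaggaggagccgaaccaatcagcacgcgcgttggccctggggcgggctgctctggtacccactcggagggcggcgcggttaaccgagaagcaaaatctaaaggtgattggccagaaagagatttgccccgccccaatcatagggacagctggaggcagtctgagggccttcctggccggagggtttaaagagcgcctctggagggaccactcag
Trib3 promoter, chr2:152344011-152344310 on the minus strand: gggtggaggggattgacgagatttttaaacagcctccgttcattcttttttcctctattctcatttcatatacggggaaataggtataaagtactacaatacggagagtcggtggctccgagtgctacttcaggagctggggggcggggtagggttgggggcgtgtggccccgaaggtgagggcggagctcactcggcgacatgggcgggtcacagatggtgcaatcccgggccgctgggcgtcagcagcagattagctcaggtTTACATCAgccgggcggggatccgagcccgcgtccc
Fgf21 promoter, chr7:45615441-45615740 on the minus strand: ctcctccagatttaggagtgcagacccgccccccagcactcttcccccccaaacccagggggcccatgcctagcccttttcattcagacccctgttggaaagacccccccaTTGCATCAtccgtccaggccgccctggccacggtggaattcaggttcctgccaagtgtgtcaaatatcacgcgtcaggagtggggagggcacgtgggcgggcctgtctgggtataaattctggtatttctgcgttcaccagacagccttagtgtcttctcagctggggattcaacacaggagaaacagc
The match began at base 228 of the window in *Asns*, 58 in *Chac1*, 265 in *Trib3* (after the gene's start) and 112 in *Fgf21*. Among the dips as a whole, 6 of the 61 genes with a window held the letters, 9.84%, and among the peaks 1 of 48, 2.08%. A match describes the sequence and shows no binding.

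Of the 14498 genes above the floor somewhere, on any of the 3 arrays, each read through its brightest probe set, 60 were transient peaks (0.414%) and 79 were transient dips (0.545%). Over the 31854 probe sets above the floor, 281 were peaks (0.882%) and 152 were dips (0.477%), so probe sets leaned to peaks and genes to dips. Most genes lay between or were not resolved, with 23.6% highest and 19.1% lowest during fusion. The calls were mostly shallow. Their median size was 2.31-fold for peaks and 2.41-fold for dips, and only 9 peaks and 11 dips passed 3-fold. Just inside the limit lay *Prdm1*, with 40.5 before, 81.0 during and 39.8 after fusion, and just outside it *Plscr4*, with 28.8, 58.0 and 29.2. For the dips *Mchr1* lay just inside with 26.9, 13.1 and 28.5, and *Pnmal1* just outside with 26.4, 3.86 and 29.1, where the signal during fusion was under the floor.

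The balance of peaks and dips depended on how the arrays were scaled. Peaks made up 43.2% of the called genes here. They made up 24.5% with scaling to the same median, 28.7% with the poly-A controls, 32.9% with quantile normalization, 64.8% when scaled to the hybridization controls and 74.6% of the deposited signals. Of the called probe sets, 64.9% were peaks here and from 42.5% to 88.5% under those scalings. The median log2 peak ratio of all genes was -0.28 here and shifted by -0.12 with the median, by -0.11 with the poly-A controls, by 0.13 with the hybridization controls and by 0.21 as deposited. Under all 6 scalings 33 of the 60 peaks and 43 of the 79 dips stayed called.

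**Figure D1:**
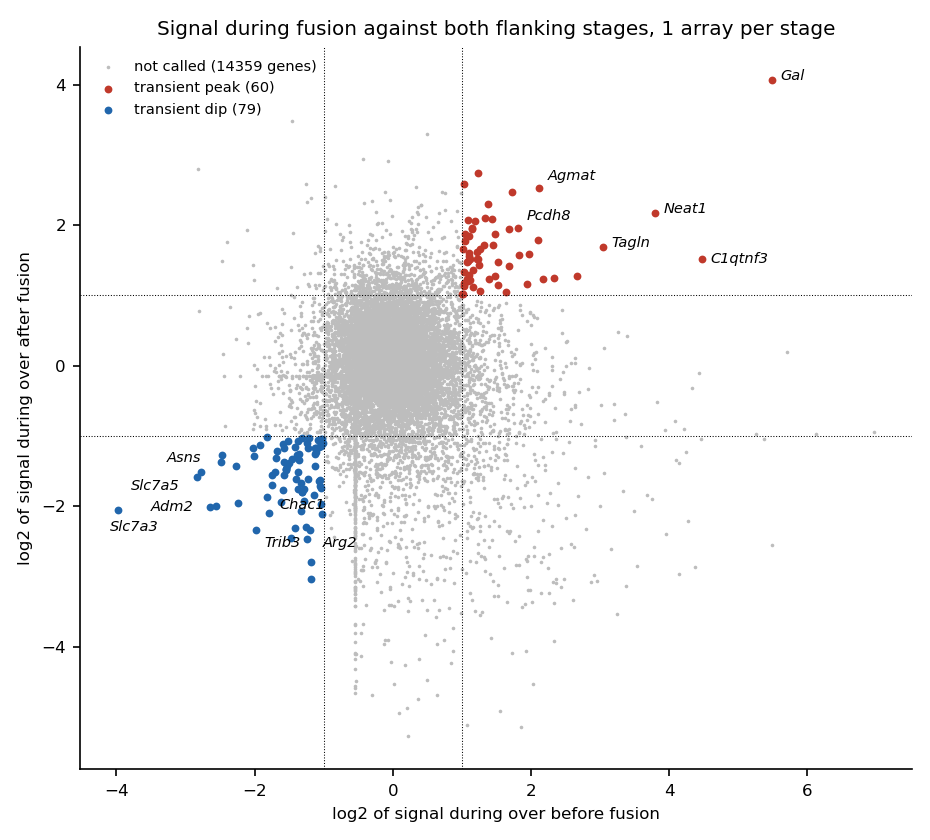
Each point is 1 of 14498 genes, with the log2 ratio of the signal during to that before fusion on the horizontal axis and to that after fusion on the vertical axis, signals under the floor being set to it. Dotted lines mark 2-fold. The 60 peaks lie in the upper right corner, with *Gal* far from the rest, and the 79 dips in the lower left corner, with *Slc7a3*, *Slc7a5* and *Asns* at its outer edge.

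The amino acid response was the gene group with the most dips. Its list was chosen with earlier results of these data known, so its counts may partly reflect the picking. Of the 32 genes of its list above the floor, 23 were lowest during fusion, 3 were highest and 9 were dips, against 19.1% lowest and 0.545% dips over all genes. Across the 6 scalings between 20 and 25 members were lowest and between 8 and 11 were dips. The median log2 dip ratio of the list was -0.47, against 0.29 over all genes. The scaled signals of the list summed to 29013 before, 13973 during and 23919 after fusion.

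A transporter had the deepest measured dip of the response, but the transporters as a list did not move farthest. The median log2 dip ratio of the transporter list given below was -0.03, against -0.47 for the amino acid response list. *Slc7a3*, a carrier of cationic amino acids, had 586 before, 37.3 during and 155 after fusion, 15.7-fold and 4.16-fold below its flanks. This was the deepest measured dip of any gene with its own symbol. *Slc7a5*, the light chain of the carrier of large neutral amino acids, had 1551 before, 219 during and 658 after fusion. *Slc3a2*, the heavy chain that partners *Slc7a5*, had 1791, 765 and 2331, 2.34-fold below the lower flank, and was a dip under 5 of the 6 scalings. Both chains of the same carrier thus reached their lowest signal on the array during fusion. *Slc7a1*, another cationic carrier, had 742, 266 and 458, and *Slc6a9*, a glycine carrier, had 327, 162 and 302. Those 2 were lowest during fusion by 1.72-fold and 1.86-fold and were not called. In a list of 25 amino acid transporters above the floor, added after the values were seen, 13 were lowest, 3 were highest and 3 were dips. Over all genes 19.1% were lowest, 23.6% were highest and 0.545% were dips. The list shares 7 genes with the amino acid list, among them the dips *Slc7a3* and *Slc7a5*, so it is not a separate count. *Slc7a2* had 53.9, 128 and 118, and *Slc38a2* had 1209, 964 and 851, so not every carrier followed.

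Several enzymes that make amino acids and one-carbon units were also low during fusion. *Asns*, asparagine synthetase, had 2511 before, 450 during and 1166 after fusion in its brightest probe set and 2232, 510 and 1142 in the other one, and both were dips, by 2.59-fold and 2.24-fold. *Mthfd2*, a mitochondrial enzyme of folate metabolism, had 629, 216 and 600, and its other probe set 408, 113 and 332. The genes of serine synthesis were also lowest during fusion, though short of 2-fold. *Psat1* had 2353, 1014 and 1554, *Psph* 635, 249 and 403, and *Phgdh* 2695, 1217 and 1357. *Aldh18a1*, which starts proline synthesis, had 1979, 607 and 1092 in its brightest probe set, which was not called. Dimmer probe sets of *Aldh18a1* were dips, by 2.66-fold, 2.55-fold and 2.21-fold. *Shmt2*, which turns serine into glycine, had 1437, 358 and 354 in its brightest probe set, a fall between the flanks with no return. A dimmer probe set of *Shmt2* had 76.9, 15.2 and 34.1 and was a 2.24-fold dip.

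Genes that charge tRNA in the cytosol were mostly lowest during fusion. Of the 19 cytosolic aminoacyl-tRNA synthetase genes above the floor 16 were lowest during fusion and none was highest. All genes had shares of 19.1% lowest and 23.6% highest. The list was added after the values were seen and shares 5 genes with the amino acid list. The only dip among them was *Cars*, for cysteine, with 420 before, 191 during and 431 after fusion, called under 5 of the 6 scalings. The dips of the list numbered from 0 to 2 over the scalings. *Aars*, for alanine, had 1129, 372 and 700, *Nars*, for asparagine, 1844, 816 and 1252, and *Gars*, for glycine, 1802, 709 and 988. Of the 16 mitochondrial synthetase genes, also listed afterwards, 2 were lowest and 6 were highest during fusion. *Hars2*, for histidine, had 202, 216 and 90.7, and *Yars2*, for tyrosine, had 109, 124 and 71.8. The count of cytosolic genes at their lowest ran from 10 to 16 over the 6 scalings and that of mitochondrial genes from 2 to 4. The count at their highest ran from 0 to 3 for cytosolic and from 2 to 11 for mitochondrial genes.

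The regulators split. *Trib3*, a pseudokinase that holds ATF4 in check, had 169 before, 42.8 during and 216 after fusion, and its other probe set 171, 55.3 and 178. *Chac1*, which breaks down glutathione, had 238, 68.5 and 293. *Atf5*, a transcription factor translated under the same control as ATF4, had 508, 196 and 664. *Stc2*, a secreted stanniocalcin, had 73.6, 15.2 and 41.0. These 4 were dips. *Atf4* itself had 1297, 1135 and 2152 and *Ddit3*, which encodes CHOP, 165, 183 and 616, so neither had the depth of the targets during fusion and both were highest after it. The RNA level of *Atf4* says nothing of its protein, which is set by translation. Against the group, *Fgf21*, a secreted metabolic hormone, had 24.8, 135 and 78.1, *Sesn2*, which is also a p53 target, 157, 233 and 170, and *Ddit4*, an inhibitor of mTORC1 signaling, 1009, 1268 and 1063. *Nupr1*, a stress-induced nuclear protein, stood at 117, 118 and 1260.

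A list of 20 further genes tied to the same response, gathered after the values were seen, held 4 dips and 9 genes at their lowest. *Adm2*, a peptide of the adrenomedullin family, had 83.7 before, a signal of 11.3 under the floor during and 53.7 after fusion, a fall of at least 6.29-fold from before fusion and at least 4.04-fold from after it. *Eif4ebp1*, which binds the cap-binding factor eIF4E, had 1998, 855 and 1926. *Arg2*, the mitochondrial arginase, had 61.7, 26.9 and 137. *Slc5a6*, a vitamin carrier, had 58.4, 14.4 and 32.4. *Eif4ebp1* and *Arg2* were called under 5 of the 6 scalings. Over the 4 lists of the response together, 14 of 82 genes were dips, none was a peak, 48 were lowest and 10 were highest. Over all genes 0.545% were dips, 19.1% were lowest and 23.6% were highest. Of the 8 dips whose signal was over 400 both before and after fusion, 7 belonged to the 4 lists. The first of these lists was chosen with earlier results of these data known. The others were made after the values were seen, so both counts partly reflect how the members were picked.

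**Figure D2:**
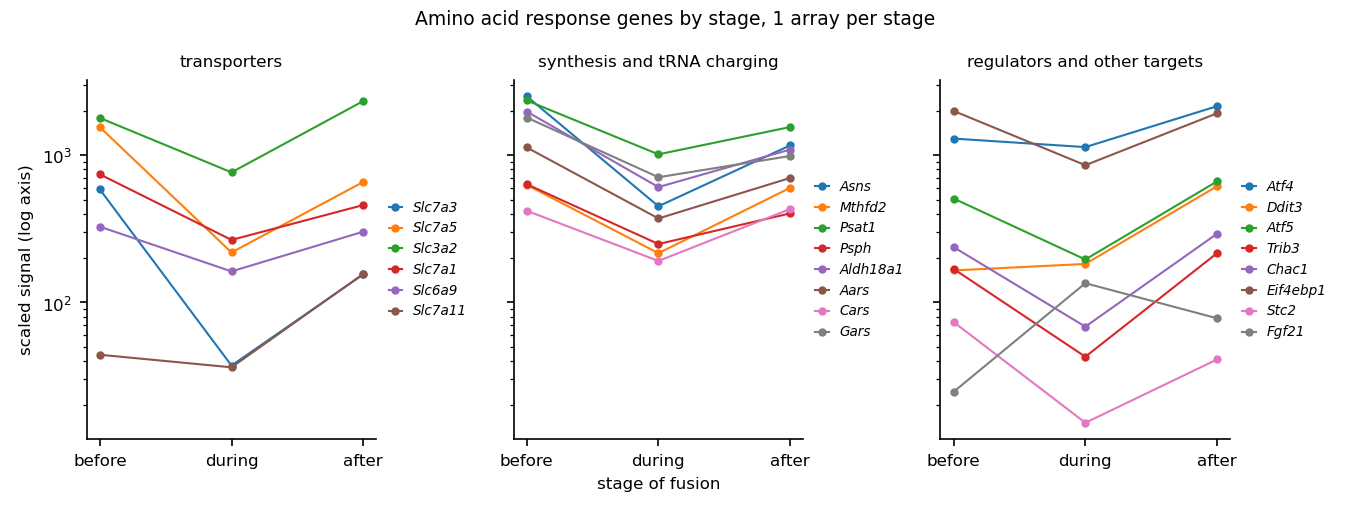
Scaled signal on a log axis at the 3 stages, 1 array each, for transporters (left), enzymes and tRNA synthetases (middle), and regulators with other targets (right). Most lines dip at the middle stage, whereas *Atf4* is nearly level from before to during fusion, *Ddit3* rises after it and *Fgf21* is highest during it.

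The unfolded protein response shares ATF4 with the amino acid response, but its own chaperones are driven by other factors. Of its 21 genes above the floor 11 were lowest during fusion and 1 was highest, with no call in either direction. All genes had shares of 19.1% lowest and 23.6% highest. *Hspa5*, the main chaperone of the endoplasmic reticulum, had 4708 before, 3076 during and 3984 after fusion. *Herpud1*, of the degradation pathway, had 442, 324 and 734. The count of members at their lowest ran from 5 to 15 over the scalings, so the count depended on the scaling.

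Dips outside amino acid metabolism included genes of neurons, neural crest and endothelium. *Tubb3*, a neuronal tubulin, had 85.0 before, 23.97 during and 87.2 after fusion. *Tubb4a*, another neuronal tubulin, had 78.4, 7.81 and 53.1, with the signal during fusion under the floor, so it was at least 3.98-fold below the lower flank. *Elavl4*, an RNA-binding protein of neurons, had 54.3, 21.1 and 53.6, but none of its 2 other probe sets above the floor was lowest during fusion. Of 18 neuronal markers above the floor 6 were lowest, 4 were highest and 2 were dips, against 19.1%, 23.6% and 0.545% of all genes. *Stmn2* had 35.9, 110 and 278 and *Gap43* 287, 203 and 215, so the markers did not move as a group. The neuronal list summed to 1388 before, 2476 during and 1647 after fusion, and most of the sum during fusion was *Gal*, described below.

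*Ednrb*, the endothelin receptor that neural crest cells need to migrate, had 290 before, 96.1 during and 327 after fusion. Its other 2 probe sets had 121, 51.4 and 139, and 73.9, 51.2 and 57.2, all lowest during fusion. It was the only dip among the 5 melanocyte markers above the floor, and *Kit* had 152, 139 and 160. The Ebf genes, transcription factors of mesenchyme and of neurons, dipped together. *Ebf3* had 150, 51.6 and 144, *Ebf2* 74.3, 28.2 and 85.8, and *Ebf1* 93.4, 42.7 and 115, whereas *Ebf4* had 87.3, 121 and 89.4. *Ebf1* was called under 5 of the 6 scalings. All 10 probe sets of *Ebf1*, *Ebf2* and *Ebf3* above the floor were lowest during fusion. This family was picked out after the values were seen. The probe set of *Ebf3* is of a kind that can match transcripts of more than 1 gene. *Foxc2*, a forkhead factor of neural crest mesenchyme, had 77.2, 27.1 and 57.0 and was called under 3 of the 6 scalings. It was the only call among 36 mesenchymal patterning genes. *Il33*, an alarmin of the interleukin family, had 80.4, 32.0 and 101.

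Endothelial genes were low on the array during fusion. Of the 23 markers above the floor 14 were lowest and 1 was highest during fusion, and 2 were dips. Among all genes the shares were 19.1%, 23.6% and 0.545%. *Mmrn2*, a matrix protein of vessels, had 114 before, 33.8 during and 99.8 after fusion. *Plvap*, which forms the diaphragms of capillary fenestrae, had 182, 61.1 and 138. *Cdh5*, the cadherin of endothelial junctions, had 116, 48.3 and 78.2, and *Pecam1* 97.3, 56.2 and 61.6. *Aplnr*, the apelin receptor, fell through all 3 stages, with 1613, 425 and 252. The list summed to 4648, 2193 and 2246, with 22, 23 and 22 of 25 genes above the floor, so the sum changed little from during to after fusion. Between 11 and 16 of its members were lowest over the 6 scalings.

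The remaining dips were mostly dim. *Slc30a3*, a zinc carrier, had 121 before, 17.6 during and 50.3 after fusion. *Angptl6*, an angiopoietin-like protein, had 65.6, 20.1 and 57.2, *Dusp13*, a phosphatase, 42.7, 14.7 and 40.5, and *Gkn3*, a gastrokine whose probe set can match other transcripts, 47.3, 16.7 and 43.7. *Fancc*, of the Fanconi anemia pathway, had 63.1, 12.9 (under the floor) and 51.8. Its 2 other probe sets above the floor did not follow, since 1 was highest during fusion and none was lowest. Dips with the signal during fusion under the floor, where only a bound is given, numbered 27 of the 79. Among them *Trim66* was at least 3.24-fold, *Faim2* at least 3.06-fold, *Pip5kl1* at least 2.95-fold, *Spire2* at least 2.78-fold and *Dclk3* at least 2.68-fold below the lower flank. The median signal of the dip genes during fusion was 20.1, close to the floor of 13.3.

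The largest peak by far was *Gal*, the gene of the neuropeptide galanin. Its signal was 29.7 before, 1337 during and 79.7 after fusion, 45.1-fold and 16.8-fold above its flanks. It was called under all 6 scalings, with a ratio to the higher flank between 15.2 and 18.8, and it has a single probe set above the floor. The next peak was 4.52-fold.

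Some named peaks encode proteins of the matrix, of contraction or of adhesion, although none of the 31 collagen and matrix genes and none of the 34 adhesion genes listed was a peak. *Tagln*, the actin-binding transgelin of smooth muscle and myofibroblasts, had 118 before, 966 during and 299 after fusion. *Nexn*, which binds actin filaments, had 32.2, 88.5 and 26.8. Among 17 smooth muscle and myofibroblast genes, listed after the values were seen, these were the only peaks, 7 members were highest and 1 was lowest. Of all genes 0.414% were peaks, 23.6% were highest and 19.1% were lowest, and the counts of the list partly reflect the picking. *Acta2*, smooth muscle actin, had 691, 1283 and 1654 and *Myl9*, a myosin light chain, 492, 771 and 1285, and so rose across both steps without a peak. *Myh11*, smooth muscle myosin, had 7.36, 14.9 and 8.78, under the floor before and after fusion and just over it during fusion.

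*C1qtnf3*, a secreted protein of the C1q and TNF family known from cartilage, had 14.7 before, 432 during and 151 after fusion. *Kera*, the keratan sulfate proteoglycan keratocan, had 43.6, 167 and 74.8. *Adamts16*, a secreted metalloproteinase, had 58.5, 193 and 34.9, but its other probe set above the floor was lowest during fusion. *Mmp12*, the macrophage elastase, had 0.781, 83.2 and 24.2, and was the only peak among 29 genes of mesenchymal transition and proteolysis. Of the 20 macrophage markers above the floor 1 was highest during fusion, and their sum was 1207, 2765 and 6326, so it was not highest at the stage where *Mmp12* was. *Pcdh8*, a protocadherin, had 77.9, 275 and 70.7. *Itgb8*, the integrin chain that activates latent TGFβ, had 113, 252 and 65.0.

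Other peaks had no group in common. *Agmat*, agmatinase, had 13.6 before, 84.5 during and 10.4 after fusion, with both flanks under the floor, so its ratio is at least 4.35. *Macc1*, a regulator of the receptor MET, had 69.4, 223 and 83.4, *Gsg1l*, an accessory subunit of glutamate receptors, 4.13, 76.3 and 25.3, *Ppwd1*, a prolyl isomerase, 55.3, 159 and 57.1, and *Trim5*, of the tripartite motif family, 23.1, 62.5 and 10.5. *Dmpk*, the myotonic dystrophy kinase, had 22.2, 62.1 and 25.6. The bounds of *Grip2*, *Rab26os*, *Zc3h3* and *Trpc7* were at least 2.49, 2.33, 2.13 and 2.10, and those of *Zc3h3* and *Trpc7* fell under 2 in some scalings.

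**Figure D3:**
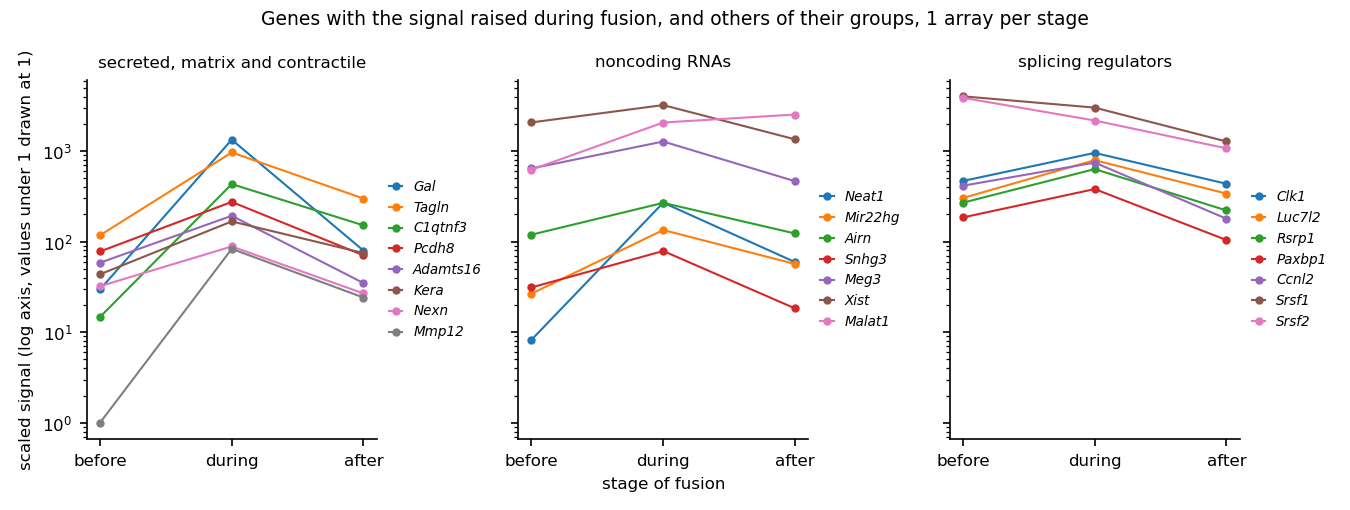
Scaled signal on a log axis at the 3 stages, 1 array each, for named peaks of the matrix, contraction and secretion (left), for noncoding RNAs (middle) and for splicing regulators (right), with values under 1 drawn at 1. *Gal* climbs from 29.7 to 1337 and returns to 79.7, while *Malat1* in its brightest probe set, *Srsf1* and *Srsf2* show no peak.

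Noncoding RNAs took a larger share of the peaks than of the genes tested. RefSeq lists 602 of the tested genes as long noncoding, and 14 of them were peaks, 2.33%, against 46 of 13776 protein-coding genes, 0.334%. For dips the shares were 0.332% and 0.559%. The noncoding share was the higher one under all 6 scalings, from 1.66% to 3.99%, where the coding share ran from 0.182% to 0.791%. Noncoding genes were dimmer, with a median signal of 20.1 against 158, and 24.1% of them were highest during fusion, near the 23.6% of coding genes. A gene was tested if it lay above the floor on any array. Of the 60 peaks 7 passed only through the array during fusion, among them the noncoding *Rab26os* with 18.8, 45.2 and 11.7. The part of this filter in the noncoding share was not tested.

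*Neat1*, the RNA that nuclear paraspeckles are built on, had 8.25 before, 269 during and 59.6 after fusion, 4.52-fold above the higher flank. Its other probe set had 41.0, 25.1 and 19.8 and did not follow. *Mir22hg*, the host transcript of a microRNA, had 26.7, 134 and 56.7, *Airn*, the imprinted antisense RNA of *Igf2r*, 119, 268 and 123, and *Snhg3*, a host of small nucleolar RNAs, 31.2, 78.9 and 18.3. *Meg3*, an imprinted noncoding RNA, fell just short in its brightest probe set with 644, 1277 and 466, a ratio of 1.98. All 11 of its probe sets above the floor were highest during fusion, and 3 of them were peaks. Among 25 noncoding RNAs and small nucleolar RNA hosts, listed after the values were seen, 14 were highest, none was lowest and 4 were peaks. Of all genes 23.6% were highest, 19.1% were lowest and 0.414% were peaks. The values were known when the list was made, so its counts partly reflect the picking. The number of peaks ran from 3 to 7 over the 6 scalings, and *Airn* was called under 4 of them.

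Some regulators of splicing were also peaks. *Clk1*, a kinase that phosphorylates SR proteins, had 468 before, 956 during and 436 after fusion. *Luc7l2*, a U1 snRNP protein, had 304, 795 and 340, *Rsrp1*, an arginine and serine rich protein, 270, 633 and 221, and *Paxbp1* 185, 381 and 104. These were the 4 peaks among 37 such genes, a list made after the values were seen, of which 22 were highest and 1 was lowest. Over all genes 0.414% were peaks, 23.6% were highest and 19.1% were lowest. Since the peaks were known when the list was made, its counts partly reflect the picking. *Ccnl2*, a cyclin of nuclear speckles, had 415, 746 and 179. The SR protein genes themselves went another way, with *Srsf1* at 4028, 3022 and 1278 and *Srsf2* at 3880, 2177 and 1073. The number of members at their highest ran from 12 to 29 over the scalings and the number of peaks from 2 to 6, with *Clk1* and *Paxbp1* called under 4 of the 6.

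Many of the called probe sets were not the main probe set of their gene. Of the 188 peak probe sets that name a single gene, 60 were the brightest of that gene, 31.9%, against 54.0% over all single-gene probe sets above the floor and 59.4% of the dips. The other 128 had, at the median, 16.5% of the signal of the brightest one. In the 121 genes they belong to, the brightest probe set was highest during fusion in 66, lowest in 13 and a peak in 3. A further 84 of the 281 peaks, 29.9%, name no gene, against 13.5% of all probe sets above the floor and 8.55% of the dips.

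*Malat1*, a nuclear RNA, shows how far probe sets of the same gene parted. In its brightest probe set it had 625 before, 2069 during and 2535 after fusion, whereas a dimmer one had 51.8, 434 and 112 and was a 3.88-fold peak. *Rpl41*, a ribosomal protein gene, had 12685, 10638 and 11263 in its brightest probe set and 42.7, 148 and 36.5 in a dim one. *Hnrnpu*, which binds nuclear RNA, had 2680, 1901 and 1468 in the brightest and 47.6, 120 and 1.58 in a dim one. *Gas5*, a host of small nucleolar RNAs, had 3550, 4393 and 5015 against 118, 270 and 21.7. *Xist* differed less, since all 3 of its probe sets were highest during fusion, by 1.55-fold, 2.42-fold and 2.74-fold. Beside these, the 5′ to 3′ ratio of the *Actb* controls was lowest during fusion at 0.713 and that of *Gapdh* highest at 1.39, and the part of the labelling in the dim probe sets was not tested.

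**Figure D4:**
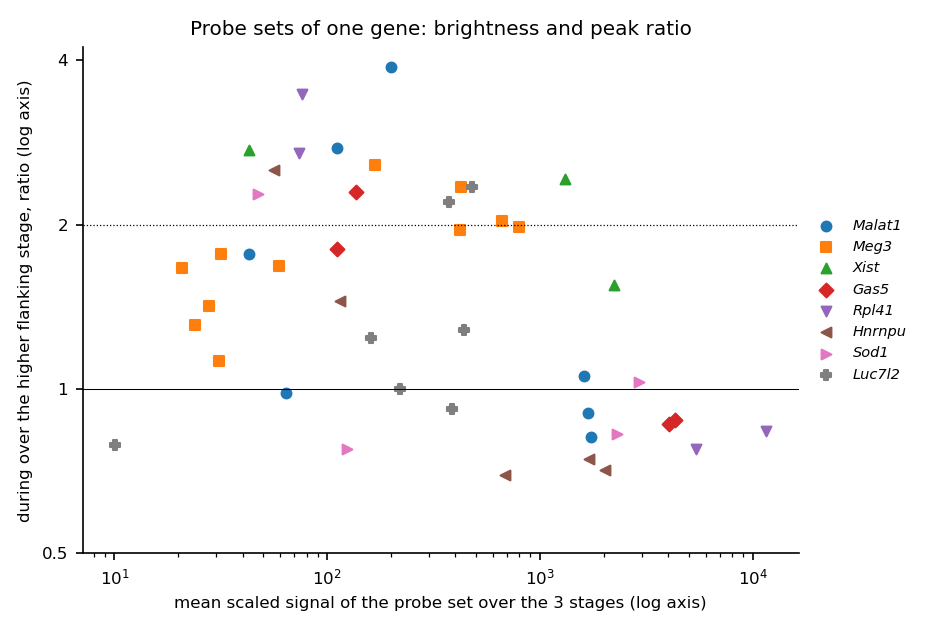
Each symbol is a probe set of 1 of 8 genes, with its mean scaled signal over the 3 stages on the horizontal log axis and its ratio of during fusion to the higher flank on the vertical log axis, where the dotted line marks 2-fold. For *Rpl41*, *Hnrnpu*, *Gas5* and *Malat1* the probe sets past 2-fold are dim, whereas *Meg3* and *Xist* pass it in dim and bright probe sets.

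The called genes were also compared with their own other probe sets. Of the 60 peak genes 19 had other probe sets above the floor, 40 in number, of which 28 were also highest during fusion and 4 were peaks. Of the 79 dip genes 29 had 46 others, of which 24 were also lowest and 9 were dips. For genes with several probe sets over a signal of 100 on all arrays, the SD between probe sets was 0.22 for the log2 peak ratio and 0.23 for the log2 dip ratio, over 2509 genes. Down to the floor these were 0.35 and 0.38 over 5457 genes. This spread is between probe sets on the same arrays and not between animals.

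No gene on the list of the medial edge epithelium was a peak or a dip. TGFβ3 of the medial edge epithelium is required for the seam to be lost, and *Tgfb3* was highest during fusion with 306 before, 575 during and 357 after, 1.61-fold above the higher flank. *Nectin4*, an adhesion receptor, had 65.0, 141 and 93.0, and *Runx1*, a transcription factor of this epithelium, 312, 542 and 371. These were the only 3 of the 18 medial edge genes above the floor that were highest, a share of 16.7% against 23.6% over all genes, and 1 was lowest. The other study genes did not peak or dip. *Ceacam1*, a cell adhesion molecule, had 33.8, 106 and 201, between its flanks in all 7 probe sets above the floor. *Krt13*, a keratin of stratified mucosa, had 3.01, 366 and 855, and *Hdc*, histidine decarboxylase, 2.79, 79.4 and 1834. *Fmo2* and *Armc3* also lay between their flanks, with 2.12, 73.4 and 135 and with 2.01, 46.6 and 543. *Car3*, carbonic anhydrase 3, had 18.6, 1009 and 879, highest during fusion by 1.15-fold.

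The 7 signaling lists held no call. Outside them *Bmper*, a BMP-binding protein, had 108 before, 30.6 during and 61.8 after fusion, a dip just inside the limit. *Itgb8*, described above, was a peak and was not on these lists. Neither *Bmper* nor *Itgb8* stayed called under all 6 scalings. In the TGFβ list 6 of 27 genes were highest and 7 were lowest during fusion, in the BMP list 7 and 6 of 24, in the Wnt list 8 and 7 of 38, in the FGF list 4 and 2 of 19 and in the Sonic hedgehog list 4 and 4 of 21. In the Notch list 8 of 17 were highest and 4 were lowest, with *Notch1* at 200, 391 and 329, and the highest count ran from 4 to 10 over the scalings. In the EGF list 4 of 14 were highest and 1 was lowest. Of the members of these 7 lists above the floor at every stage, those closest to a peak were *Rspo1*, a Wnt agonist, with 221, 438 and 253, *Btc*, the EGF receptor ligand betacellulin, with 29.5, 55.4 and 32.2, and *Bmp5* with 59.2, 97.1 and 56.3. *Fst*, the activin antagonist follistatin, had 328, 487 and 266.

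Targets of p53 stood out by order and not by size. Of the 19 above the floor 12 were highest during fusion, none was lowest and none was called, and between 9 and 14 were highest over the scalings. All genes had shares of 23.6% highest and 19.1% lowest. The median log2 peak ratio of the list was 0.13, against -0.28 over all genes. *Pmaip1*, the pro-apoptotic NOXA, had 78.6 before, 754 during and 542 after fusion, *Ccng1*, cyclin G1, 517, 2392 and 2005, and *Ei24* 977, 1804 and 1297. *Cdkn1a*, the cell cycle inhibitor p21, had 233, 2392 and 3833.

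**Figure D5:**
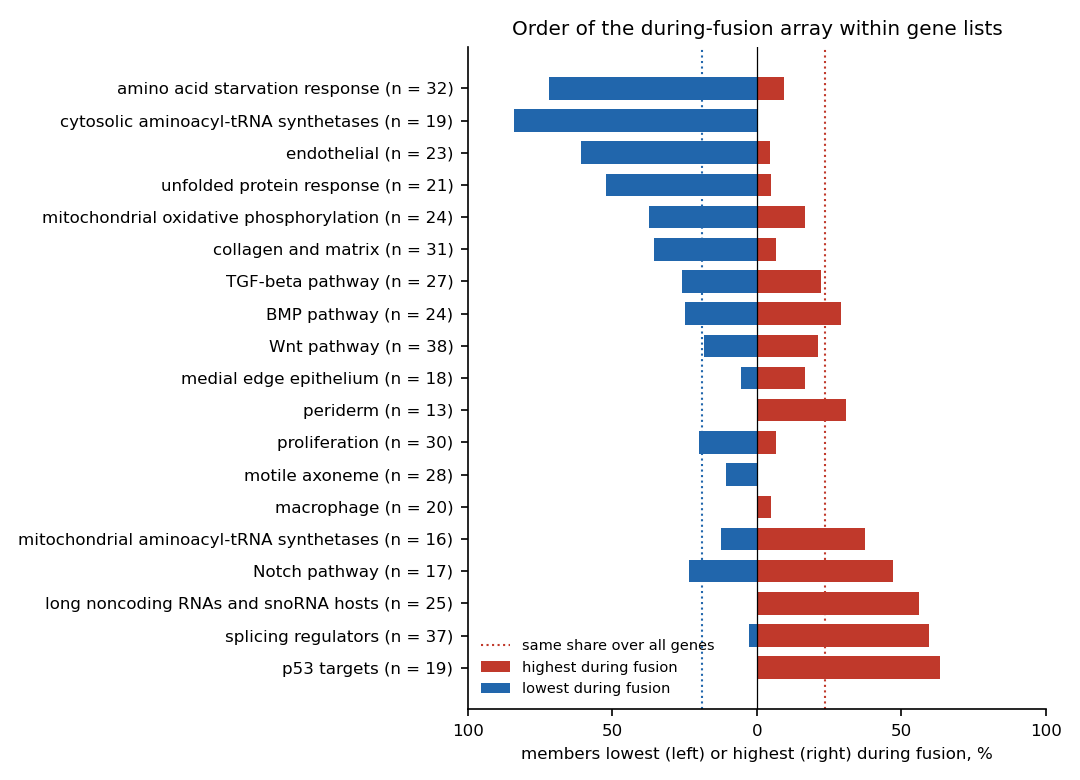
For 19 gene lists, bars to the right give the share of members above the floor whose signal was highest during fusion and bars to the left the share whose signal was lowest, and dotted lines give the same shares over all genes, 23.6% and 19.1%. Lists of amino acid genes and endothelium lie to the left, lists of noncoding RNAs, splicing regulators and p53 targets to the right, and the TGFβ, BMP and Wnt lists near both dotted lines, while 47.1% of the Notch list was highest.

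Of the 49 gene lists chosen beside the study genes, 42 held no call in either direction. Of 28 motile cilium genes none was highest and 3 were lowest during fusion, and of 13 periderm genes 4 were highest and none was lowest. Skeletal muscle markers summed to 2163 before, 648 during and 411 after fusion and erythroid markers to 15437, 9973 and 2000, with no call in either list. Among 30 proliferation genes 2 were highest and 6 were lowest.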

How the data were processed

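The authors scanned 3 arrays, 1 per stage, and deposited MAS5 signal intensity values from GeneChip Operating Software, linear, background-corrected and not logged. The labels name a column kit for the RNA and the methods name Trizol. From these intensity values, with Python 3.11, numpy and pandas, the arrays were scaled to the same mean after leaving out 2% at each end, by factors of 1.11, 0.918 and 0.986, and each signal under its array's floor, which is the 95th percentile over the 81 probe sets of sensory receptors, was raised to it. A deposited 0 was raised with the other low signals, to 0.1 where no floor was used. A peak with both flanks under the floor, and a dip with the signal during fusion under it, is a bound. Each gene was read through its brightest probe set. Of the 45037 probe sets 34945 name 1 gene, 932 several and 9160 none, by the platform annotation updated through RefSeq. The stages, the gene lists and the rule for named genes were chosen with earlier results of these data known: the study genes, the 15 largest measured ratios and 8 largest bounds each way, and up to 4 calls of each list, or 2 each way where it had none. In all 50 lists were set first and 9 followed once values had been seen. The named genes outside this rule were chosen after their values were seen. The code was tested on simulated data. With 1 array per stage no test was possible, and the number of arrays limits the precision. Alternatives were other scalings, floors, a 4-fold limit and the median over a gene's probe sets.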

Additional observations from a re-analysis of the deposited data

How the results depend on the processing

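No paired analysis was possible because each stage has 1 array. Of 42 recomputed counts, 16 stayed within 1.5 times the value reported and 26 did not, and the cause was not tested for those that moved. Peak genes (60) numbered 37 with scaling to the same median, 35 with the poly-A controls, 103 with the hybridization controls, 135 as deposited, 512 with no floor, 39 with the floor added and 3 at 4-fold. Dip genes (79) numbered 46 as deposited, 898 with no floor, 29 with each array floored at its median, 36 with the floor added and 2 at 4-fold. Peak probe sets (281) numbered 168 with the median, 170 with the poly-A controls, 468 with the hybridization controls, 645 as deposited, 2317 with no floor, 140 with the floor added and 6 at 4-fold. Dip probe sets (152) numbered 94 with the hybridization controls, 84 as deposited, 2603 with no floor, 90 with a common floor, 52 with each array floored at its median, 70 with the floor added and 3 at 4-fold. With no floor, the probe sets under the floor on all 3 arrays enter the counts. Of 1828 recomputed ratios of named genes 63 moved by more than the spread between probe sets, and no called ratio changed sign. Of 944 list medians, each less the median of all genes, 13 moved as far.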

Other observations

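The order of energy and housekeeping genes depended on the scaling. Of 24 genes of mitochondrial oxidative phosphorylation 9 were lowest and 4 were highest during fusion, and of 12 housekeeping genes 7 were lowest and 1 was highest. Over the 6 scalings the lowest numbered from 0 to 13 and the highest from 2 to 13 in the former list, and from 1 to 9 and from 1 to 4 in the latter. *Cox6a1*, a subunit of cytochrome oxidase, had 8339 before, 7253 during and 8336 after fusion, and *Atp5b*, of ATP synthase, 5898, 5339 and 5969. No member was called. Outside the list, *ND5*, a subunit of complex I encoded by mitochondrial DNA, had 2590, 1121 and 2283, a dip and the brightest one outside amino acid metabolism. *ND5* did not stay called under all 6 scalings. The 3′ control probe set of *Gapdh*, a glycolytic enzyme, had 7599, 4756 and 5409.

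Matrix genes were more often lowest than highest. Of 31 collagen and matrix genes 11 were lowest and 2 were highest during fusion, from 6 to 14 and from 1 to 5 over the scalings. Their shares were 35.5% and 6.45%, against 19.1% and 23.6% of all genes. *Col4a2*, a basement membrane collagen, had 793, 439 and 772, and *Tnc*, tenascin C, 597, 432 and 650. *Has3*, a hyaluronan synthase, had 79.7, 117 and 64.0. Among retinoid genes 7 of 19 were lowest, 36.8% against 19.1% of all genes, with *Dhrs3*, which lowers retinaldehyde, at 163, 108 and 249.

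Of 32 immediate-early genes 2 were highest and 5 were lowest, from 2 to 7 and from 3 to 8 over the scalings. *Fosl2*, a subunit of AP-1, had 144, 570 and 335, and *Nr4a3*, a nuclear receptor, 21.3, 17.4 and 75.6. The clock gene *Per3* had 59.5, 90.7 and 44.9 and *Nr1d1* 23.9, 19.2 and 76.1. The tissue of the 3 stages was collected after different hours in culture, and no value here separates the hour from the stage.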
